A study of Mus musculus with 360 samples.

Results

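The coronal (COR) suture is the fibrous joint between the frontal and parietal bones of the skull vault, and it was represented here by single cells sorted as CD51+;CD200+ skeletal stem/progenitor cells from wild-type CD-1 mice at postnatal day 3. The members were all cells of the 2 coronal plates in which at least 500 genes had a read and at least 10000 reads were counted. This kept 74 of the 80 coronal cells, of 325 cells that met the same limits among the 360 cells of the whole study, which also sampled the posterior frontal and sagittal sutures and the tibial growth plate. Of the 74 cells, 16 were on plate 1 and 58 on plate 2. The cells came from dissected suture complexes that take in osteogenic fronts, suture mesenchyme, dura mater and periosteum, were gated as CD105-, 6C3-, Thy1.2-, Thy1.1-, Tie2-, Ter119- and CD45-, and were sorted one cell to a well. Mice were pooled and no animal is named for a cell, so the coronal cells form 1 sample, the cells are not replicates, and everything below is a description on each plate with no test.

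A suture is a growth site of membranous bone. Mesenchymal cells in its middle divide or stay undifferentiated, cells towards the bone edges become osteoblasts that lay down type I collagen and mineral-binding proteins, and fibroblast-like cells of the suture ligament, periosteum and dura make type III collagen, periostin and small leucine-rich proteoglycans. The coronal suture of the mouse remains patent, in contrast to the posterior frontal suture.

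Library depth differed between the plates. Reads per cell ran from 82680 to 567310 on plate 1 (median 221470) and from 161161 to 1081375 on plate 2 (median 711798). Reads of Rn45s, the precursor of ribosomal RNA, took 7.58% to 70.2% of a cell's reads and were left out of every total. A cell had a median of 3867 genes with a read on plate 1 and 3307 on plate 2. The 6 coronal cells that missed the limits were all on plate 2 and held 31 to 2599 reads, while the kept cell with the fewest genes had 537 genes and 537134 reads. No 2 cells had identical counts. Xist, the RNA that silences an X chromosome, was read in 24 cells and any of 4 Y-linked genes in 30 cells, and 0 of 74 cells held both, which allows a share of up to 4.05% by counting error.

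The sort and the tissue could be checked in the reads. Itgav, which encodes CD51, had reads in 45 of 74 cells (median 36.4 CPM, which stands for reads per 1000000 reads of the cell) and Cd200 in 41 (median 39.2 CPM), and 61 cells had a read of at least 1 of them. The genes for the surface proteins sorted against were read in 11 cells. None of 16 hindlimb position genes (Tbx4, Pitx1 and Hox genes) had a read in any cell, and 50 cells had a read of a cranial position gene such as Alx1 or Msx2. Of 7 endothelial genes 3 had any read, in 9 cells, with a summed level of 0 to 446.9 CPM and the endothelial adhesion gene Pecam1 had none. Haematopoietic genes were read in 7 cells at a summed 0 to 285.2 CPM, and Alas2 was the one erythroid gene of 6 with a read. Glial and neural genes were read in 15 cells, and 2 plate 2 cells held at least 4 of the 7 genes, at a summed 10808 and 8310 CPM against at most 383.3 CPM in every other cell.

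Of the 6 genes given as markers of these cells, Col1a1 was read in all 74 cells. Col1a1 encodes the main chain of type I collagen, the bulk protein of bone, and ran from 1599 to 141974 CPM on plate 1 (median 74289) and from 97.5 to 322801 CPM on plate 2 (median 42976). Col3a1, the type III collagen of pliable connective tissue, was read in 71 cells, with a median of 7953 CPM on plate 1 and 15164 CPM on plate 2. The ranges of both collagens overlapped between the plates. Lrrc15, a membrane protein of stromal and bone-forming cells, was read in 37 cells, 9 of them on plate 1. Its highest level was 2031 CPM and it passed 1000 CPM in 8 cells. Lgals3 (galectin-3, a sugar-binding protein) was read in 29 cells, Tnfaip6 (a hyaluronan-modifying protein made in inflammation) in 27 cells and Tppp3 (a tubulin-binding protein that marks tendon sheath cells) in 25 cells. The median of all 3 was 0 CPM on each plate. Of these markers only Col1a1 and Col3a1 were therefore read in all or nearly all cells, while the others were read in a part of the cells. Since type I collagen is also the bulk protein of bone, Col1a1 does not tell fibrous from bone-forming cells.

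To compare levels between genes, reads were divided by the length of each gene's longest transcript and scaled to the same sum in every cell (TPM, of 1000000), the mean of which over the 74 cells gives the order of genes. The leading gene was Spp1 at a mean of 65489 TPM, followed by Sparc at 38168 TPM, Col1a1 at 25216 TPM and Col1a2 at 19556 TPM. Spp1 encodes osteopontin, Sparc encodes osteonectin, both acidic proteins of bone matrix, and Col1a2 the other chain of type I collagen. Lum (lumican, a proteoglycan that spaces collagen fibrils) came next at 8150 TPM and Col3a1 at 7221 TPM. The rest of the leading 20 were the translation factor Eef1a1, the ferritin chains Ftl1 and Fth1, Serpinf1 (pigment epithelium-derived factor), the tetraspanin Cd63, the folding enzyme Ppic, Lgals1 (galectin-1), Bglap (osteocalcin), Postn (periostin), Itm2a (a membrane protein), Mfap2 (a protein of elastic microfibrils), Anxa2, Actb and Rpl4. These 14 genes had means between 3176 and 7140 TPM. Of the leading 20 genes of plate 1, 14 were also among the leading 20 of plate 2.

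**Figure D1:**
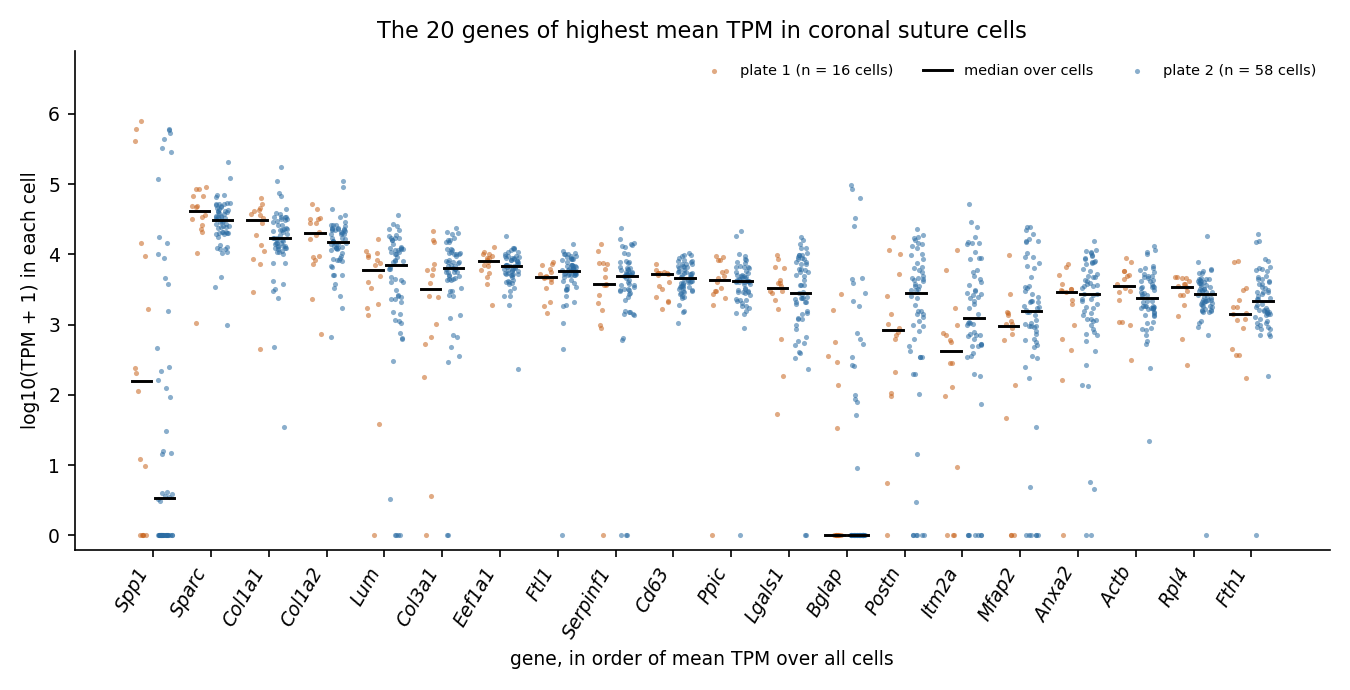
Level of the 20 genes with the highest mean TPM in each coronal suture cell, as log10(TPM + 1), with plate 1 (16 cells) in orange, plate 2 (58 cells) in blue and black bars at the median of each plate. Sparc, Col1a1 and Col1a2 lie high in nearly every cell on both plates, while Spp1 and Bglap reach their rank through a few cells of very high level and many at 0.

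A mean hides how unevenly these genes were spread. Sparc was read in all 74 cells and never fell below 1102 CPM. Col1a2 was likewise read in every cell, from 1737 to 188617 CPM. The highest levels of Col1a1 and Col1a2 were both in the kept cell with the fewest genes (537). Spp1 was read in 42 cells and had a median of 1.84 CPM. On plate 1 it ran from 0 to 726190 CPM (median 113.8) and on plate 2 from 0 to 540880 CPM (median 1.64). It exceeded 1000 CPM in 19 cells and 100000 CPM in 9 cells, and in those 9 cells it ran from 201128 to 726190 CPM. Bglap, the late osteoblast hormone, was read in 29 cells and exceeded 1000 CPM in 5, all on plate 2, where its highest level was 22097 CPM against 566.7 CPM on plate 1. Bglap2, a near-identical neighbour that can share reads, was read in 28 cells, so the split between the copies is uncertain. The place of Bglap among the leading genes (rank 9 on plate 2, rank 417 on plate 1) comes with 1 cell that held 31.7% of its summed CPM. Ibsp (bone sialoprotein), the reverse case, ranked 5 on plate 1 and 82 on plate 2, and was read in 9 of 16 and 10 of 58 cells.

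The genes of bone mineral were read together in part. Ibsp and Spp1 were both read in 17 cells, Ibsp without Spp1 in 2, Spp1 without Ibsp in 25, and neither in 30. Any read counts here, and cells with Spp1 reads went down to 1.30 CPM, so part of these are traces. Bglap and Spp1 were both read in 22 cells, and Ibsp and Bglap in 12. Alpl, the phosphatase that frees phosphate for mineral and an early osteoblast gene, was read in 60 cells with a median of 889.7 CPM, more widely than Spp1. Alpl and Spp1 were both read in 34 cells, Alpl alone in 26, Spp1 alone in 8 and neither in 6. Alpl was thus read in most cells with Spp1 and in most without it, so the joint count shows no link of these 2 genes. Of the 11 cells with Spp1 over 10000 CPM, Ibsp was read in 8, Bglap in 7 and Alpl in 5. Sp7 (osterix), the factor that commits cells to the osteoblast line, was read in 44 cells, 41 of which also had Alpl. Runx2, the factor upstream of Sp7, was read in 46 cells at a median of 15.9 CPM. Dmp1, of late osteoblasts and osteocytes, was read in 8 cells and Phex in 6.

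The next question was which genes differed most from cell to cell. For each gene the standard deviation (SD) of log2(CPM + 1) over the cells of a plate was set against the running median of that SD over the genes nearest in mean level, and the excess is given in log2 units. Of 5298 genes read in at least 20% of the cells of each plate, 143 were in the upper 5% of this excess on both plates, a share of 2.7%. Each plate's own upper 5% held 265 genes, so 53.96% of either plate's list was also on the other's. Over the 5298 genes the excess on the plates had a Spearman's rho of 0.70, a description over genes that share cells and depth within a plate. The limit lay at an excess of 0.67 on plate 1 and 0.47 on plate 2.

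**Figure D2:**
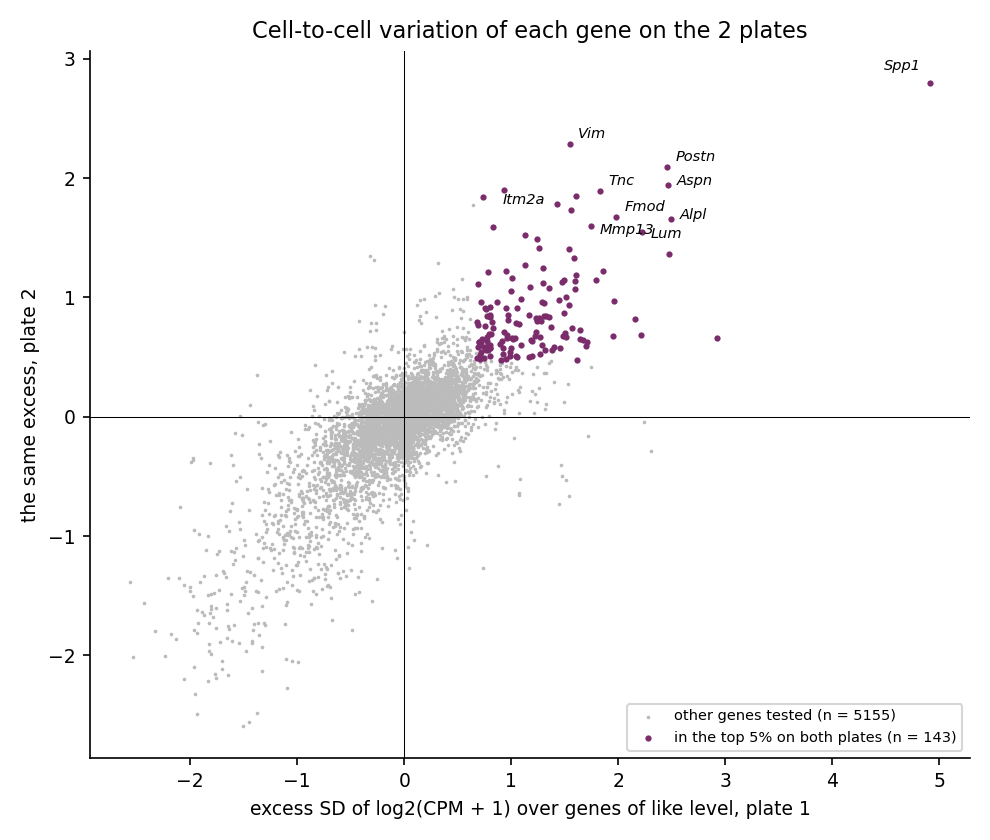
Excess of the SD of log2(CPM + 1) over genes of like level, plate 1 on the x axis and plate 2 on the y axis, for 5298 genes, with the 143 genes in the upper 5% on both plates in purple and 10 of the leading ones named. Spp1 stands far from the rest at 4.91 on plate 1 and 2.80 on plate 2, and Postn, Aspn, Tnc and Fmod come next by the lower of the 2 values.

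Spp1 had the greatest excess by far, 4.91 on plate 1 and 2.80 on plate 2. The next genes by the lower of the 2 values were Postn, Aspn, Tnc and Fmod. Postn, a matricellular protein of periosteum and ligament, was read in 67 cells, with a median of 1125 CPM on plate 1 and 3917 CPM on plate 2, a highest level of 31935 CPM, and an excess of 2.46 and 2.09. Aspn (asporin, a collagen-binding proteoglycan) was read in 59 cells and rose to 19138 CPM, with an excess of 2.47 and 1.95. Tnc (tenascin C) was read in 62 cells and Tnn (tenascin N, found in periosteum) in 46 cells, with an excess of 1.83 and 1.89 for Tnc and 1.55 and 1.74 for Tnn. Fmod (fibromodulin) and Lum had an excess of at least 1.55 on each plate. Other matrix or secreted proteins among the leading 20, all but Col12a1 on none of the fixed lists, were Angptl2, a secreted glycoprotein, Col12a1, the fibril-associated collagen of dense connective tissue, Cthrc1, a collagen-linked secreted protein, Mfap2 and Serpine2.

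Of the osteoblast list, Spp1, Alpl and Mmp13 were among the leading 20. Alpl ran from 0 to 4766 CPM with an excess of 2.49 and 1.66. Mmp13 (collagenase 3, made by mature osteoblasts) was read in 31 cells and passed 1000 CPM in 16, with an excess of 1.74 and 1.60, and 1 cell of plate 2 at 59281 CPM held 43.8% of its summed level. Tmem119, a membrane protein that promotes osteoblast differentiation and is not on the list, was read in 60 cells with an excess of 1.86 and 1.22. Vim (vimentin, the filament protein of mesenchymal cells) was at 0 in 12 of 74 cells, 11 of them on plate 2, and at a median of 1355 CPM. Its excess was 1.55 on plate 1 and 2.29 on plate 2. The remaining genes of the leading 20 were Igfbp5 (an insulin-like growth factor binding protein), Itm2a, Dkk3 (a secreted relative of the Wnt inhibitors) and Mest (an imprinted gene of fetal growth).

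The fixed gene lists show which functions varied, to be read against the 2.7% of all tested genes. Of the proteoglycan list, 6 of 8 tested genes were called (Dcn, Lum, Fmod, Aspn, Omd and Ogn). Of the osteoblast list 6 of 11 were called (Sp7, Alpl, Spp1, Mmp13, Panx3 and Omd) and of the fibroblast list 5 of 11 (Col3a1, Col5a1, Dcn, Lum and Postn). Of the fibrillar and associated collagens 5 of 9 were called, and Col1a1 and Col1a2 were not among them. Of the matricellular list 5 of 10 were called. All 3 tested genes of the list of secreted Wnt inhibitors were called, Dkk3, Sfrp4 and Wif1. However, a single plate 1 cell at 23596 CPM held 60.6% of the summed Sfrp4 level. Of the glycolysis genes 0 of 9 were called, of the heat shock genes 0 of 8 and of the genes for ferritin and lysosome proteins 1 of 10. At a share of 2.7% such counts are usual for lists of this size and say nothing particular about these functions. Sparc had an excess of -1.09 on plate 2 and 0.04 on plate 1. Sparc, Col1a1 and Col1a2 are among the highest genes, so they were set mostly against lower genes. Their values therefore do not show low variation for their level.

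Gene pairs were compared by Spearman's rho over the cells of each plate, for 2640 genes read in at least 40% of the cells of each plate. These correlations describe cells that share a plate, its depth and its scaling. Over all 3483480 pairs the median rho was 0.11 on plate 1 and 0.067 on plate 2. A pair was counted as rising together where rho was at least 0.6 on both plates, which 231 pairs met, a share of 0.00663%. On plate 1 alone 99724 pairs passed, 2.86% of all pairs, and on plate 2 alone 718 passed, 0.0206%. The 231 pairs were 32.2% of the plate 2 list and 0.232% of the plate 1 list, whose 16 cells leave rho wide. The scaling moved this count. Since Spp1 took up to 72.6% of a cell's reads, totals were also taken without Spp1, which left 89 of the 231 pairs above 0.6 on both plates, and with pooled size factors from scran, which left 63, and 55 pairs held under all 3 scalings.

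The strongest pair was Col1a1 with Col1a2, the chains of 1 protein, at a rho of 0.95 on plate 1 and 0.92 on plate 2. Sparc rose with both, at 0.90 and 0.75 with Col1a2 and at 0.95 and 0.69 with Col1a1. These 3 genes formed a group of their own, all 3 pairs of which held under the other scalings, and no other gene joined it at 0.6. The next genes with Col1a1 were Rcn3, a chaperone of the secretory pathway (0.67 and 0.58), Pcolce, which aids the cleavage of procollagen (0.58 and 0.52), and Lepre1, a collagen prolyl hydroxylase (0.50 and 0.48). The other matrix genes were less close to type I collagen. The rho of Col1a1 was 0.38 on plate 1 and 0.26 on plate 2 with Col3a1, 0.51 and 0.060 with Postn, and -0.11 on each plate with Aspn. Its rho with Spp1 was -0.30 on plate 1 and 0.13 on plate 2.

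The sequence before the start of Col1a2 and Sparc is shown because these genes rose together in the cells, and that of Aspn, Ptn and Spp1 for the groups that follow. Each is the 250 bases before the start of the RefSeq transcript on GRCm38.p6, read along the gene, with each match to the CCAAT box (searched as CCAAT), the TATA box (searched as TATAAA) or the core of the Runx motif (searched as ACCACA), on either strand, in capitals. The motifs do not overlap each other. The positions are chr6:4505368-4505617 on the plus strand, chr11:55420081-55420330 on the minus strand, chr13:49544193-49544442 on the plus strand, chr6:36810180-36810429 on the minus strand and chr5:104434861-104435110 on the plus strand, the more upstream of 2 starts.
Col1a2: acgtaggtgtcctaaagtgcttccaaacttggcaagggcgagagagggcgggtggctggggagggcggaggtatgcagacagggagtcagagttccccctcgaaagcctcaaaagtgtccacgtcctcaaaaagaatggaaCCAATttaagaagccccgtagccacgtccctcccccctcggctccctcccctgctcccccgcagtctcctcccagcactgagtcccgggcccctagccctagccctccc
Sparc: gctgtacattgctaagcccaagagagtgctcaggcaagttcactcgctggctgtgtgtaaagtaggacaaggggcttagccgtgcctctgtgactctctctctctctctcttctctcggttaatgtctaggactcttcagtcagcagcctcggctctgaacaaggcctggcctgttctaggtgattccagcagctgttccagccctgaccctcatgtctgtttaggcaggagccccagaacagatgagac
Aspn: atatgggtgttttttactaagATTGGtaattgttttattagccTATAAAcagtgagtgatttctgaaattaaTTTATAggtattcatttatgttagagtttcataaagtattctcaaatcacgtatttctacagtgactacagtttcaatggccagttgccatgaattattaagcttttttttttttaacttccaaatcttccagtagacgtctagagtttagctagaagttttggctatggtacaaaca
Ptn: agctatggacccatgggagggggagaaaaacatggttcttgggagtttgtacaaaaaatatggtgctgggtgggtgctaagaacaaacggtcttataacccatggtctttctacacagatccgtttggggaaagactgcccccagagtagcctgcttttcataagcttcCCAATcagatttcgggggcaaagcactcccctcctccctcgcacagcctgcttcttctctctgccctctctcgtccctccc
Spp1: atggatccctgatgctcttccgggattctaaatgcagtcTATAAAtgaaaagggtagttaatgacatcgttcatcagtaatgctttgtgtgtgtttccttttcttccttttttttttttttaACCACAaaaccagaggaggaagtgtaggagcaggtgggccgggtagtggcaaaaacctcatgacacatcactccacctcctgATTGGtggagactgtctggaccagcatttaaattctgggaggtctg
The Col1a2 window holds 1 CCAAT box, starting 109 bases before the start of the transcript, and the Sparc window holds none of the 3 motifs. Aspn holds a CCAAT box on the reverse strand and a TATA box on each strand, and Ptn holds 1 CCAAT box. Spp1 holds 1 of each motif, with the Runx core on the gene's strand, 128 bases before the start. The windows of Postn and Itm2a were also searched, are not shown and hold none of the 3 motifs. Of 32851 promoter windows of this length 33.8% hold the CCAAT box, 12.4% the TATA box and 14.05% the Runx core on either strand, so these matches are common and describe letters, not binding.

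The pair of Aspn and Ptn had a rho of 0.86 and 0.79. Ptn encodes pleiotrophin, a heparin-binding growth factor of developing bone and its surroundings. Aspn and Ptn were both read in 58 cells, Aspn alone in 1, Ptn alone in 9 and neither in 6. Aspn also rose with Postn (0.72 and 0.69) and with Col12a1 (0.70 and 0.62), and Postn rose with Tnn (0.74 and 0.78). Every one of the 46 cells with Tnn reads also had Postn, and a further 21 had Postn alone. Col3a1 rose with Col12a1 (0.79 and 0.67) and with Postn (0.89 and 0.62). Tnn also rose with Npnt, nephronectin, an extracellular ligand of integrins (0.93 and 0.63). These 7 pairs were among the 55 that held under all 3 scalings, whereas Aspn with Lum (0.66 and 0.63), Postn with Ptn (0.62 and 0.63) and Aspn with Angptl2 (0.68 and 0.60) were not.

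**Figure D3:**
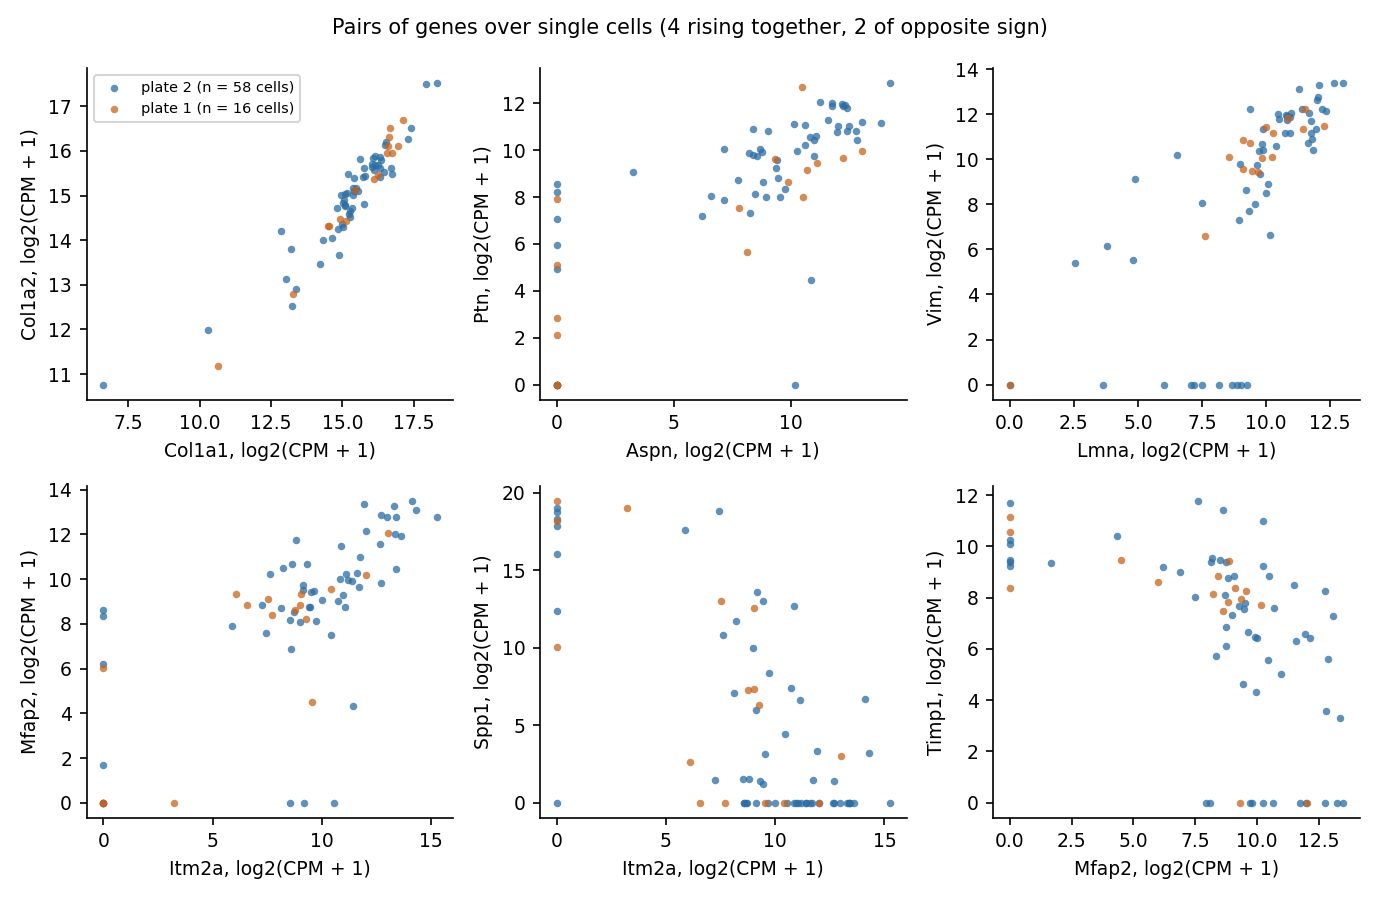
Levels of both genes of 6 pairs in each cell, as log2(CPM + 1), with plate 1 (16 cells) in orange and plate 2 (58 cells) in blue. Col1a1 and Col1a2 lie on a narrow diagonal, Aspn with Ptn, Lmna with Vim and Itm2a with Mfap2 rise together, partly through cells with no read of either gene, and the 2 pairs of opposite sign are spread wider.

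The largest group linked by pairs held 58 genes, joined by 141 of the 231 pairs, and 30 of these pairs held under all 3 scalings. Its members were of many kinds, from the cytoskeleton (Actb, Tuba1a and Cfl1), annexins and S100 proteins to glycolysis (Gapdh and Ldha), translation (Eif5a and Eif4a1), the mitochondrion (Atp5b and Cox6b1) and the matrix genes Aspn, Postn, Col3a1, Col12a1, Tnn and Lum. These matrix genes were joined to the rest only through Lum, by Aspn with Lum and Cnn3 with Lum (0.67 and 0.63). Neither pair kept a rho of 0.6 on both plates under either other scaling, so none of the 231 pairs joined these matrix genes to the rest there. Pairs that passed only under another scaling were not looked at and the groups were not formed again. Whether the matrix genes were apart under those scalings was therefore not tested. Actb rose with Tuba1a (0.83 and 0.80), actin with tubulin. It also rose with Myl12a, a myosin light chain (0.92 and 0.74). Lmna, the lamin of stiff nuclei, rose with Vim (0.79 and 0.85). All 62 cells with Vim reads also had Lmna, 10 cells had Lmna alone and 2 had neither. Lmna was thus read in nearly every cell, so this overlap says little about the pair. S100a6, a calcium-binding protein, rose with Vim (0.79 and 0.75), and so did the LIM protein gene Crip1 with Lgals1 (0.87 and 0.77) and Anxa5 with Lgals1 (0.84 and 0.74). Anxa2 with Myl12a (0.77 and 0.74) stayed above 0.6 without Spp1 in the total but was 0.597 on plate 1 with scran factors. Gapdh rose with the folding enzyme gene Ppia (0.89 and 0.73). Pfn1 with Ppia, at 0.73 and 0.74, was lost with Spp1 out of the total, when its rho on plate 1 was 0.43.

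The markers Lrrc15, Lgals3 and Tppp3 lay nearest to this group. Lrrc15 was most like S100a6 (rho 0.75 on plate 1 and 0.58 on plate 2), then Myadm, a membrane protein (0.55 and 0.63), Postn (0.68 and 0.53), Actg1 (0.53 and 0.53) and Lgals1 (0.56 and 0.51). Lrrc15 and Postn were both read in 36 cells and Lrrc15 without Postn in 1. Lgals3, Tppp3, Tnfaip6 and Acta2 were read in too few cells for the 40% limit. These genes were taken at 20%, a choice made after seeing the data. Lgals3 was most like S100a6 (0.75 and 0.75) and next like Tppp3 (0.70 and 0.72), then Lmna, Vim and Anxa5. Lgals3 and Tppp3 were both read in 21 cells, Lgals3 alone in 8, Tppp3 alone in 4 and neither in 41. Tppp3 in turn was most like Lgals3, followed by Lmna, S100a6, Vim and Anxa1. Tnfaip6 had no neighbour as close: the nearest was Ece1, endothelin-converting enzyme, at 0.55 and 0.46, and it shared reads with Lgals3 in 18 cells. Acta2, smooth muscle actin, was read in 29 cells and was most like Tuba1a (0.68 and 0.71) and Cnn3, a calponin (0.79 and 0.66).

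A smaller group of 12 genes was joined by 13 pairs, of which 8 held under all 3 scalings. Its best linked genes were Itm2a, Mfap2, Sulf2 (a sulfatase that edits heparan sulfate), Il11ra1 (the interleukin-11 receptor) and H19 (an imprinted RNA of fetal growth), and it also held Igfbp4, Fndc1, Fstl1, Htra1, Igf2, Lhfp and Peg3. Itm2a rose with Sulf2 (0.81 and 0.67), with Il11ra1 (0.73 and 0.70) and with Mfap2 (0.69 and 0.73). Mfap2 rose with H19 (0.77 and 0.69) and Peg3 (0.66 and 0.65), and Fstl1 with Igfbp4 (0.75 and 0.67). Itm2a and Mfap2 were both read in 60 cells, and 5 cells had neither. Itm2a had a median of 320.5 CPM on plate 1 and 936.1 CPM on plate 2, and its highest level was 38932 CPM. Igf2, H19 and Peg3 are imprinted genes, and over the 9 tested genes of the imprinted list the median pairwise rho was 0.29 on plate 1 and 0.39 on plate 2.

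**Figure D4:**
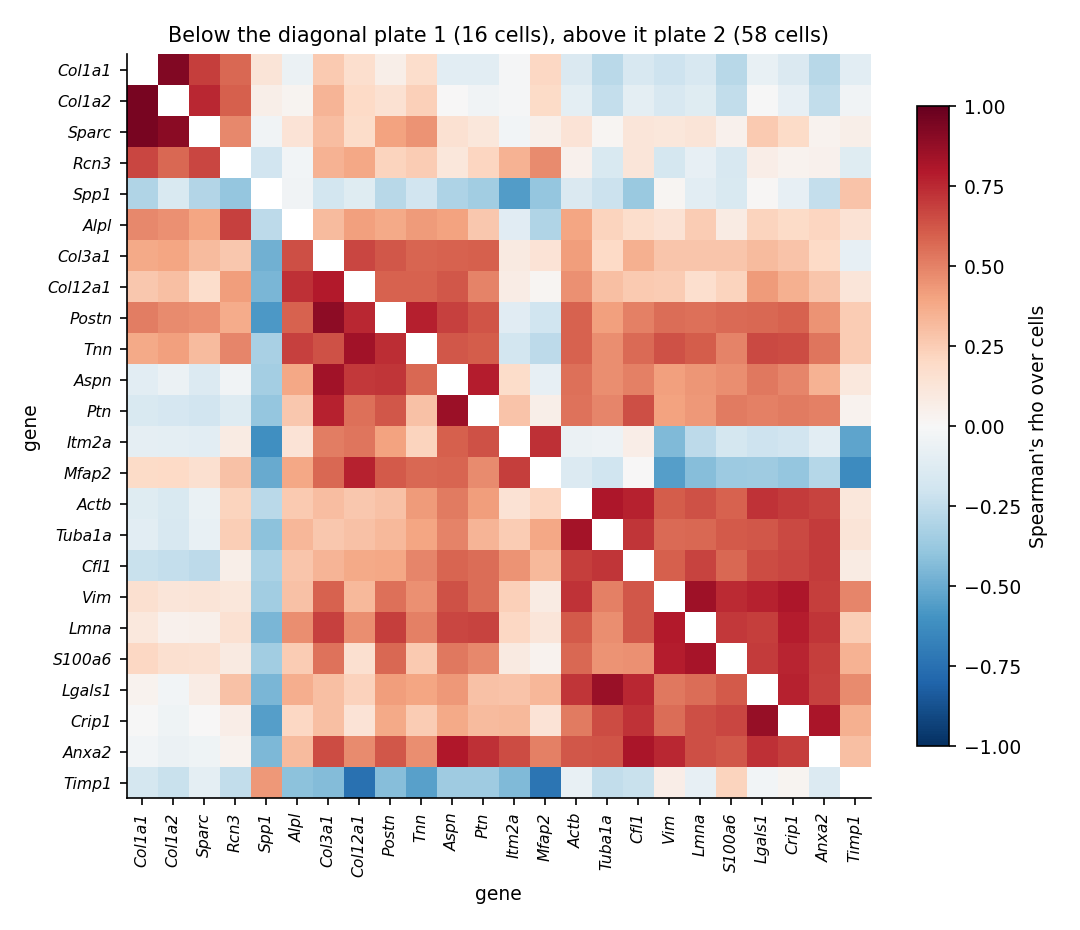
Spearman's rho over cells between 24 genes named in the text, with plate 1 (16 cells) below the diagonal and plate 2 (58 cells) above it, from -1 in blue to 1 in red. Type I collagen with Sparc, the genes from Col3a1 to Ptn, and those from Actb to Anxa2 form red blocks on both plates, and Spp1 and Timp1 are blue against Itm2a and Mfap2.

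Ribosomal protein genes made up 52 of the 231 pairs, led by Rpl13 with Rpl32 (0.74 and 0.75), and 10 of the 52 held under all 3 scalings. These genes have many processed copies in the genome, so their counts are uncertain. Rpl13 with Rpl32 was not among them, as its rho on plate 1 was 0.56 with scran factors. The pair Rpl14 with Rpl14-ps1 (0.83 and 0.74) and the pair Mfap1a with Mfap1b are near-identical copies that can share reads, and they are uncertain. Rpl14 with Rpl14-ps1 is counted in the 52 and in the 10 above. Outside these sets, Mest rose with Clec11a, osteolectin, a secreted growth factor of skeletal cells (0.63 and 0.64), and Dhrs3, a retinal reductase, with Notch2 (0.70 and 0.61), and both pairs held under all 3 scalings. Col6a1 with Col6a2 and the 4 linked genes Kdelr2, Arf4 and Ppib of the secretory pathway with Rpl36al, a ribosomal protein gene, did not keep a rho of 0.6 on both plates under either other scaling.

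Pairs of opposite sign were few. The correlation was at most -0.5 on both plates for 9 pairs, 0.000258% of all, and these were 4.57% of the 197 pairs at that limit on plate 2 (0.00566% of all), where 1.13% of all pairs were at the limit on plate 1. The count was 18 without the cell with the fewest genes, 24 with Spp1 out of the total and 34 with scran factors, so its size is not firm. The widest was Mfap2 with Timp1, an inhibitor of matrix metalloproteinases, at -0.73 and -0.63. Timp1 was read in 61 cells at a median of 224.3 CPM and Mfap2 in 65 at 584.4 CPM, and in none of the 74 cells were both at 0. Itm2a and Spp1 had a rho of -0.62 and -0.56. Of the 11 cells with Spp1 over 10000 CPM, 4 had a read of Itm2a and 0 had it above 1000 CPM, while 32 of the 74 cells were above 1000 CPM for Itm2a. Since these genes share a total, the pair was taken again with Spp1 out of it, and rho was -0.62 and -0.55. The others were Caprin1 with Cpe (-0.64 and -0.60), Ypel3 with Ywhaq, Timp1 with Zscan26, Rab2a with Scara3, Cd9 with Cpz, Crip2 with Dhrs3 and Cpe with Ptn. Cpe encodes a carboxypeptidase of peptide hormones and Caprin1 an RNA-binding protein. Cpe with Tpm2 lay just outside, at -0.57 and -0.499. Rab2a with Scara3 and Cpe with Ptn passed -0.5 on both plates under neither other scaling, and Cd9 with Cpz failed with scran factors.

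The last comparison asked whether osteoblast and fibroblast genes exclude each other within these cells. The mean log2(CPM + 1) of the osteoblast list ran from 0.68 to 7.61 over the cells (median 4.78 on plate 1 and 2.99 on plate 2). That of the fibroblast list ran from 2.02 to 8.62 (median 6.65 and 6.79). Their rho was -0.51 over the 16 cells of plate 1 and 0.047 over the 58 cells of plate 2, so the sign was not shared by the plates, and over all 74 cells it was -0.12. The fibroblast list rose with the collagens on both plates (0.85 and 0.61), with Col3a1, Col5a1 and Col5a2 in both lists. The contractile and fibroblast lists had a rho of 0.29 on plate 1 and 0.58 on plate 2, and of 0.12 and 0.47 with the number of genes detected held constant.

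**Figure D5:**
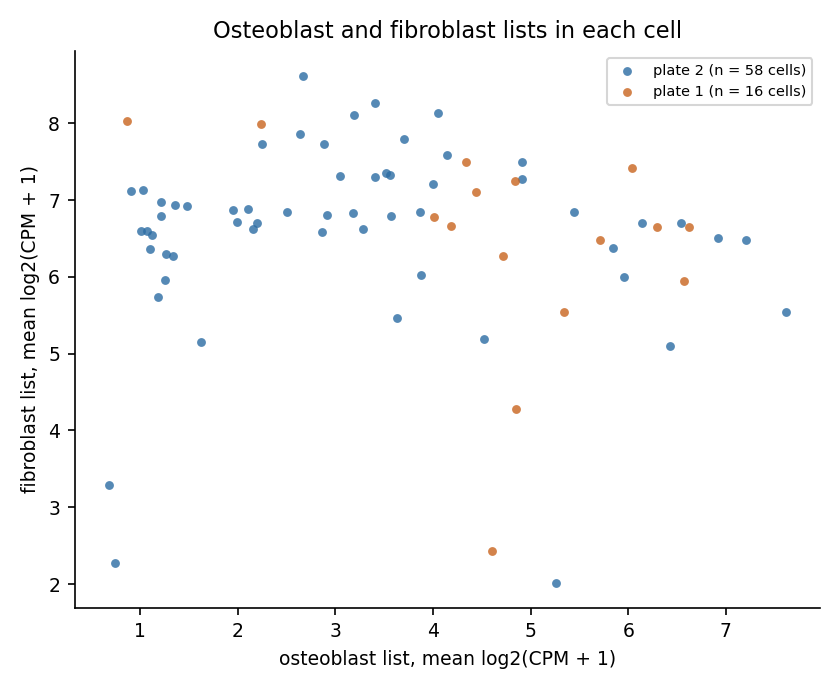
Mean log2(CPM + 1) of the osteoblast list on the x axis and of the fibroblast list on the y axis in each cell, with plate 1 (16 cells) in orange and plate 2 (58 cells) in blue. Most cells have a fibroblast mean between 5 and 8 over the whole range of osteoblast means, and plate 1 slopes down while plate 2 does not.

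Within lists, genes rose together to different degrees. Of 17 lists with at least 3 genes in the pair table, 14 had a median pairwise rho above that of all pairs on both plates, and the FGF, BMP and suture stem cell lists did not. By the lower of the plate values the highest were glycolysis (0.52 on plate 1 and 0.35 on plate 2), the collagens (0.38 and 0.32) and the imprinted list (0.29 and 0.39). The secretory and ER stress list was at 0.42 and 0.25. The osteoblast list was low at 0.13 and 0.17 over 7 genes, and the fibroblast list at 0.11 and 0.11 over 10 genes. On plate 1 the fibroblast value of 0.114 was barely above the 0.113 of all pairs, so its place among the 14 is not firm. The number of genes detected in a cell moved with some of these lists. Over all cells its rho was 0.71 with the glycolysis mean, 0.68 with the ER mean and 0.44 with the fibroblast mean, while with the osteoblast mean it was 0.091 on plate 1 and -0.19 on plate 2. With the number of genes detected held constant, the median rho within the glycolysis list was 0.38 and 0.26 and within the ER list 0.28 and 0.19. Under the same control, 134 of the 231 pairs stayed at a partial rho of at least 0.6 on both plates and 230 stayed at 0.4 or above.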

How the data were processed

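Single cells were sorted into wells of 96-well plates and made into full-length SMART-seq2 libraries, which carry no molecular identifiers, so counts include PCR copies and intervals cover counting error only. The authors deposited read counts per gene symbol, which per the labels came from STAR 2.5.3a on mm9 with HTSeq. The annotation and strand setting are not given in the sources used here, so overlapping and antisense genes cannot be told apart. Per the labels Seurat 2.3.0 and R 3.4.4 were also used.

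Counts were scaled to CPM with Rn45s out of the total. TPM used the longest GENCODE transcript on mm9 (22062 of 24015 symbols, 1117 through RefSeq synonyms, 99.7% of reads). Variation used log2(CPM + 1), and pairs Spearman's rho within each plate. The text names the 6 markers, the 20 leading genes by TPM and by variation, the 15 leading pairs and 10 of opposite sign, the 5 nearest genes of chosen anchor genes, and members of 43 lists, and other called pairs were added after their values were seen. Members and lists were chosen with earlier results of these data known. Scripts were tested on simulated data. Python 3.11.15, numpy 2.4.6, scipy 1.17.1, R 4.3.3 and scran 1.30.0 were used.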

Additional observations from a re-analysis of the deposited data

How the results depend on the processing

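No paired analysis was possible because the cells come from 1 pooled sample and no result rests on a test. Leaving out cells with both Xist and Y-linked reads changed nothing, as there were 0. The main values were 143 variable genes, 231 pairs rising together, 9 pairs of opposite sign, a mean summed level of 98094 CPM for the osteoblast list and 39647 CPM for the fibroblast list, and an osteoblast to fibroblast rho of -0.12. Between 14 and 20 of the leading 20 genes were kept under every alternative, and 13 to 15 lists rose together.

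Each plate was also taken alone with the gene limit applied to that plate only, so that more genes and pairs were tested than above. With plate 1 alone there were then 316 variable genes, 170250 pairs rising together and 83607 of opposite sign, and the lists were at 155249 and 31082 CPM. With plate 2 alone there were 303, 820 and 288, and the osteoblast to fibroblast rho was 0.047, the reverse sign. Ranking by CV squared gave 79 variable genes, genes read in 50% of cells 50 and no filter beyond 2 cells 228, and Cthrc1 turned to -0.13 by CV squared. Pairs rising together numbered 82 with scran factors, 94 with Spp1 out of the total and 535 by Pearson correlation. Pairs of opposite sign numbered 24 under the stricter cell filter and with Spp1 out, 20 with 71 cells thinned to 100000 reads, 34 with scran factors, 28 as partial rho, 2 and 31 with genes read in 60% and 20% of cells, and 18 without the cell with the fewest genes. The osteoblast list was at 155487 CPM with scran factors and the fibroblast list at 28470 CPM with Rn45s in the total. With Spp1 out of the total the osteoblast list was at 160913 CPM, but Spp1 itself stayed in the sum of the list. Spp1 held 53.4% of that sum under the main scaling, so this is not the level of the list without Spp1. The 2 settings on Spp1 and on the cell with the fewest genes were added after seeing the data.

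None of the 15 leading pairs and 10 of opposite sign changed sign under any alternative. They were picked for a strong rho on both plates, so a kept sign was largely fixed by that choice. Their size did move, down to a weaker plate rho of 0.42 among the 15 and of -0.26 among the 10. Col1a1 with Spp1, not among them, differed in sign between the plates. The 16 cells of plate 1, at a median of 221470 reads, limit every value that needs both plates, and genes read in few cells, such as Ibsp and Top2a, could not enter the pairs.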

Other observations

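Genes of cell division and immediate early genes were spread unevenly over the cells. At least 8 of 16 G2/M genes were read in 7 cells, 1 on plate 1 and 6 on plate 2, and none in 40 cells, though a cell with fewer than 8 reached a summed 4516 CPM and a cell with at least 8 was as low as 536.7 CPM. Mki67, the proliferation marker, was read in 12 cells and Top2a, the topoisomerase of dividing cells, in 8. Of 15 S phase genes at least 8 were read in 4 cells, and 1 plate 2 cell held all 15. Fos, an immediate early gene, was read in 18 cells and passed 1000 CPM in 5. Fos and Junb were both read in 14 cells, with a rho of 0.50 on plate 1 and 0.74 on plate 2. Fos was also below the 40% limit and was taken at 20%. At least 1 of 22 immediate early genes was read in 70 cells and at least 11 in 9 cells, where the summed level began at 1333 CPM against up to 11330 CPM in cells with fewer, and the highest summed level was 15390 CPM in 1 plate 2 cell.

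Wnt ligands were read in 39 cells at a summed median of 7.24 CPM. The list of secreted Wnt inhibitors was read in 71 cells at a summed median of 1234 CPM. Dkk3, a relative of these inhibitors, held 37.7% of the summed level of that list. Among inflammation genes Timp1 held 60.8% of the summed level. Chondrocyte genes were read in 71 cells, though Col11a1, also made by osteoblasts, held 66.8% of their sum. Fmod held 90.8% of the tenocyte list. The meningeal list was read in 42 cells, and 1 plate 2 cell held at least 5 of its 10 genes, at a summed 2914 CPM, while the highest sum, 3734 CPM, was in another plate 2 cell with 4 of them. The part of other cell types in the variation was not tested.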
